A study of Mus musculus with 4 samples.

Results

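Signals of 10 genes of the Notch pathway were followed across 4 arrays of mouse dermal RNA: the receptors *Notch1*, *Notch2*, *Notch3* and *Notch4*, the ligands *Jag1*, *Jag2*, *Dll1* and *Dll4*, and the target genes *Hes1* and *Hey1*. All of their 19 probe sets were taken, of 34945 probe sets that name a single gene, and the 10 genes are 10 of the 18193 genes on the array. Each probe set reads one segment of a transcript, mostly towards its 3′ end, through several short probes. The arrays hybridised RNA of dermal cells from C57BL/6 adult females, 10 weeks old by the labels, with 1 array per condition. The virgin array came from abdominal skin of virgin mice injected intradermally with the vehicle dimethyl sulphoxide (DMSO), and the dorsal and abdominal arrays from dorsal and abdominal skin of DMSO-injected mice at 15 days post-coitus (dpc). The PP2 array came from abdominal skin at 15 dpc after injections of PP2, an inhibitor of Src family kinases. Injections were given 2 times a day for 4 days in all groups, from 12 dpc in pregnant mice, so that every group carries the injection itself. The labels write ventral for abdominal, and the sample titles give 15 dpc where the descriptions of the pregnant samples give 16. No allele or transgene is listed for any group. Cells were released from the dermis with collagenases and hyaluronidase. The number of mice pooled for an array was not given in the sources used here.

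Notch receptors are single-pass membrane proteins that are activated by ligands of the Jagged and Delta families on a neighbouring cell. Ligand pulling exposes the receptor to a surface protease and then to γ-secretase, and the freed intracellular part enters the nucleus and joins the DNA-binding protein Rbpj to switch on repressors of the Hes and Hey families. In skin, *Notch1* and the Jagged ligands act in keratinocytes and hair follicles, *Notch3* is the receptor of vascular smooth muscle and pericytes, and *Notch4* and *Dll4* belong to the endothelium. *Hes1* and *Hey1* also answer to other signals, such as bone morphogenetic proteins.

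Of the 19 probe sets, 14 were called present on all 4 arrays, 3 on some and 2 on none, and each of the 10 genes had at least 1 probe set that was present on all 4. The signal is an intensity on a linear scale, in arbitrary units, and signals are compared between arrays for 1 probe set and never between probe sets. A probe set entered a comparison when it was present on at least 1 of the pair, and it was counted as higher or lower when the ratio of the abdominal array to the other array passed 2-fold and the brighter array had a present call. Without a present call on the dimmer array a fold is only a lower bound, taken against the larger of the probe set's own signal and the dimmest present signal there, and is printed with the words at least. All 3 comparisons share the abdominal array. With 1 array per condition no value has an error or a test, and an order of arrays whose signals lie close together cannot be told from noise. The samples are bulk dermal cells, in which fewer cells of a type and less RNA per cell cannot be told apart.

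Promoters are shown for *Notch3* and *Jag1*, the receptor and the ligand with the widest differences among probe sets present on all arrays, and for *Hey2*, a target gene outside the 10 whose promoter holds the Rbpj-binding letters. They are the 300 bases from 250 before to 50 after the RefSeq start in the build GRCm38.p6, on the minus strand in each case, at chr17:32166841-32167140 for *Notch3*, chr2:137116471-137116770 for *Jag1* and chr10:30842734-30843033 for *Hey2*. Capitals mark GTGGGAA or its reverse complement, which contain the shorter TGGGAA; both strands were searched for both.
Notch3: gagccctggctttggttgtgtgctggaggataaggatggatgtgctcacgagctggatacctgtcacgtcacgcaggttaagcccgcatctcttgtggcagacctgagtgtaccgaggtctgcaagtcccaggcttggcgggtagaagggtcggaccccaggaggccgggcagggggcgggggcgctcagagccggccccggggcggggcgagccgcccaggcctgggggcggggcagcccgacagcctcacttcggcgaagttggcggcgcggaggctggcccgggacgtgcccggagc
Jag1: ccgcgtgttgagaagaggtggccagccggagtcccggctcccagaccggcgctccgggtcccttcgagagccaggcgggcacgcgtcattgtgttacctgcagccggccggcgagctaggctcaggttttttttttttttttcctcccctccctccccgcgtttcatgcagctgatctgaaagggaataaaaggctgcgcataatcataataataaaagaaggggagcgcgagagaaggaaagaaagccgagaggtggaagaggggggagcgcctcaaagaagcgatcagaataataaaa
Hey2: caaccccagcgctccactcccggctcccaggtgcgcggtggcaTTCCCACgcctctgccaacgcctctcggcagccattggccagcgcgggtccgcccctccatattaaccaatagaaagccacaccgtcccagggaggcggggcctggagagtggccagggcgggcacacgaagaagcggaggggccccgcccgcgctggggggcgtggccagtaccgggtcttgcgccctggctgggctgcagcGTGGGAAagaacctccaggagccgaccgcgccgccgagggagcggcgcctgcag
The *Hey2* window held 2 copies, 1 on each strand. Of other target genes outside the 10, the *Hes5* window held 2 copies and the *Nrarp* window 0. RefSeq promoters were found for 8 of the 10 genes, 9 windows in all, and 0 of the 9 held TGGGAA, against 25.6% of all 32851 promoters of that length for TGGGAA and 6.38% for GTGGGAA. *Hes1* and *Hey1* had no entry. A match is a description of letters and not a binding site, and its lack says nothing about Rbpj.

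Among the receptors, *Notch3* stood highest on the abdominal array by both of its probe sets. Probe set 1421964_at read 305 on the virgin, 262 on the dorsal, 631 on the abdominal and 192 on the PP2 array. The abdominal signal exceeded the virgin one by 2.07-fold, the dorsal one by 2.41-fold and the PP2 one by 3.28-fold. The brighter probe set, 1421965_s_at, whose suffix marks probes shared by several transcripts, read 2244, 1994, 3255 and 2049 in the same order, and its folds were 1.45, 1.63 and 1.59. Both probe sets placed the abdominal array first and the virgin array after it, and only the dimmer one passed 2-fold. The dorsal and PP2 arrays changed places between them. This was the only one of the 10 genes with a probe set above 2-fold against all 3 other arrays. Of the 22233 probe sets of all genes that were called present on the abdominal array, 0.895% passed in this way.

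*Notch1*, the receptor best known from keratinocytes, differed little between the arrays. Its brighter probe set, 1418634_at, read 3309 on the virgin, 2795 on the dorsal, 3328 on the abdominal and 2884 on the PP2 array, and 1418633_at read 832, 806, 932 and 910. Highest and lowest array differed by 1.19-fold and 1.16-fold for these probe sets. *Notch2* was close to this: 1455556_at read 1256, 1100, 1366 and 1023, with the abdominal array 1.34-fold above PP2, 1.24-fold above dorsal and 1.09-fold above virgin skin. Its second probe set, 1451889_at, was not called present on any array, with signals of 14.4 to 48.3, and has no fold. For both receptors the abdominal array gave the highest signal and all folds of detected probe sets stayed below 2.

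*Notch4*, the endothelial receptor, gave probe sets that went different ways. By the brightest, 1449146_at, the signals were 1241 on the virgin, 1085 on the dorsal, 1294 on the abdominal and 1570 on the PP2 array, so that PP2 stood highest, 1.21-fold above the abdominal array. By 1456263_at they were 88.0, 97.1, 59.0 and 32.4, with no present call on the PP2 array, so that PP2 stood lowest and the abdominal array was at least 1.82-fold above it. The virgin and dorsal arrays were 1.49-fold and 1.64-fold above the abdominal array by this dim probe set. The last probe set, 1436901_at, was called present nowhere, with signals of 7.55 to 56.2. The direction for *Notch4* therefore turned with the probe set in all 3 comparisons, and no direction is given for the gene.

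**Figure D1:**
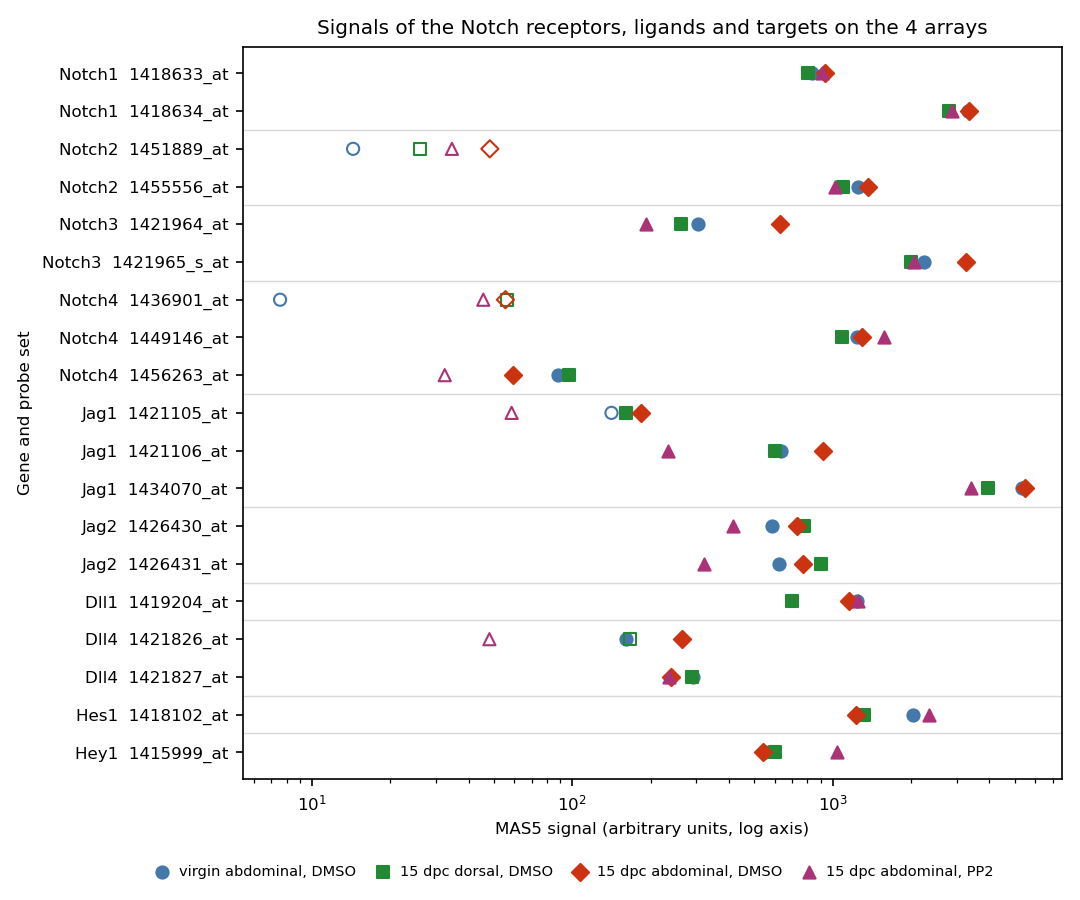
MAS5 signal (arbitrary units, log axis) of the 19 probe sets on the 4 arrays, 1 point per array, filled where the probe set was called present and open where it was not. Both *Notch3* probe sets have the abdominal array on the right, all *Jag1* and *Jag2* probe sets have the PP2 array on the left, and *Hes1* and *Hey1* have it on the right.

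The Jagged ligands were lowest on the PP2 array by all 5 of their probe sets. For *Jag1*, a ligand of keratinocytes, endothelium and hair follicles, the brightest probe set, 1434070_at, read 5363 on the virgin, 3962 on the dorsal, 5473 on the abdominal and 3406 on the PP2 array. Probe set 1421106_at read 634, 600, 921 and 234, and 1421105_at read 142, 161, 185 and 58.5, without a present call on the virgin and PP2 arrays. All 3 had the abdominal array first and PP2 last. The abdominal array was above PP2 by 1.61-fold by 1434070_at, 3.94-fold by 1421106_at and at least 3.15-fold by 1421105_at. Against virgin skin the same probe sets gave 1.02-fold, 1.45-fold and at least 1.30-fold, and against dorsal skin 1.38-fold, 1.54-fold and 1.15-fold. Thus only the comparison with PP2 passed 2-fold, by 2 of 3 probe sets and not by the brightest.

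How low the PP2 array was against arrays other than the abdominal one depended on the *Jag1* probe set. By 1421106_at, virgin and dorsal skin were 2.71-fold and 2.56-fold above PP2. By the brightest, 1434070_at, they were 1.57-fold and 1.16-fold above PP2. The *Jag1* difference by 1421106_at therefore lay between PP2 and all 3 DMSO arrays, while the brightest probe set passed 2-fold against none of them.

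*Jag2*, the second Jagged ligand, read 625 on the virgin, 901 on the dorsal, 772 on the abdominal and 321 on the PP2 array by 1426431_at, its brighter probe set. By 1426430_at it read 586, 774, 728 and 414. The order of the arrays was the same for both: dorsal, abdominal, virgin, PP2. The abdominal array was 2.41-fold above PP2 by 1426431_at and 1.76-fold by 1426430_at, and 1.23-fold and 1.24-fold above virgin skin. Dorsal skin stood 1.17-fold and 1.06-fold above abdominal skin. *Jag2* was the only one of the 10 genes whose brightest probe set passed 2-fold in any of the 3 comparisons. Its probe sets were close in mean signal, and 1426431_at read below 1426430_at on the PP2 array. With 1426430_at taken as the brighter, no gene would have passed.

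The Delta ligands showed no shared pattern. *Dll1*, with a single probe set, 1419204_at, read 1237 on the virgin, 699 on the dorsal, 1160 on the abdominal and 1255 on the PP2 array. Dorsal skin was the low one, with the abdominal array 1.66-fold above it, while the 3 abdominal skins lay within 1.08-fold of each other. *Dll4*, the ligand of arterial and sprouting endothelium, read 292, 288, 241 and 235 by 1421827_at, a spread of 1.24-fold. By the dimmer 1421826_at it read 160, 166, 264 and 48.1, with present calls on the virgin and abdominal arrays only. That put the abdominal array 1.65-fold above virgin skin, at least 1.59-fold above dorsal skin and at least 5.49-fold above PP2. The last is the widest fold among the 10 genes, and the brighter probe set gave 1.02-fold for the same pair, which turned to the other side of 1 when the arrays were scaled to one median.

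The target genes had their highest signals on the PP2 array, opposite to the Jagged ligands, with folds below the 2-fold limit. *Hes1*, a basic helix-loop-helix repressor, read 2044 on the virgin, 1323 on the dorsal, 1227 on the abdominal and 2348 on the PP2 array. It was lowest in abdominal skin at 15 dpc, with PP2 1.91-fold, virgin skin 1.67-fold and dorsal skin 1.08-fold above. *Hey1*, a related repressor found in the vasculature and follicle, read 548, 603, 539 and 1044. PP2 was thus 1.94-fold above the abdominal array, and virgin and dorsal skin lay within 1.12-fold of the abdominal array. Each has 1 probe set, 1418102_at for *Hes1* and 1415999_at for *Hey1*, present on all arrays. Both lay just inside the 2-fold limit against PP2 and passed it, as lower on the abdominal array, when each array was scaled to one median of its present signals. *Hes1* separated the 4 arrays into 2 high ones, virgin and PP2, and 2 low ones, and *Hey1* into 1 high one, PP2, and 3 low ones.

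**Figure D2:**
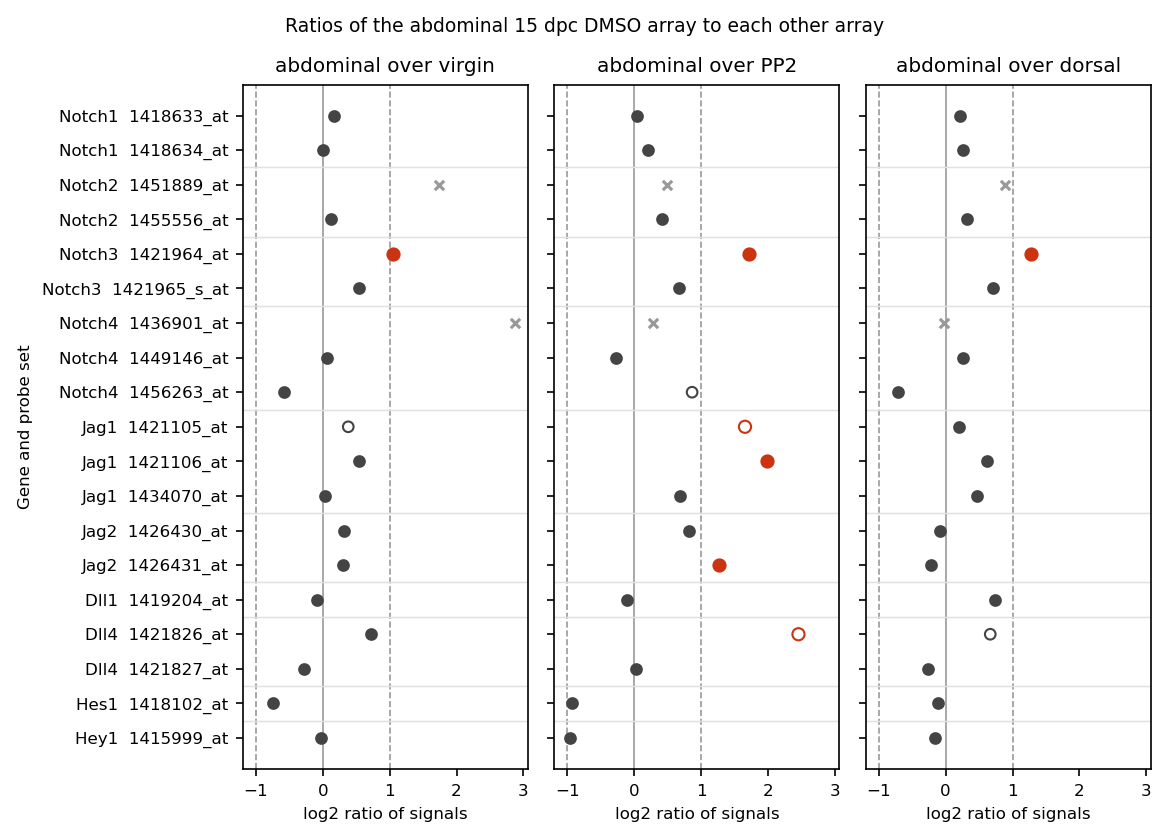
Log2 ratio of the abdominal array to the virgin, PP2 and dorsal array for the 19 probe sets. Red points passed 2-fold (dashed lines), open circles lack a present call on 1 array of the pair and are drawn at the ratio of the signals, and grey crosses have no present call on either. Passing points number 1 against virgin, 5 against PP2 and 1 against dorsal skin, all on the side of higher signals in abdominal skin.

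Counted together, 1 of the 17 probe sets compared was higher on the abdominal array than in virgin skin and 0 were lower, against 3.48% higher and 4.09% lower among 23275 probe sets of all genes. In the comparison with PP2, 5 of 17 (29.4%) were higher, those of *Notch3*, *Jag1* (2), *Jag2* and *Dll4*, and 0 were lower, against 7.89% and 3.39% of 23627. Among the 17, 1421105_at of *Jag1*, 1421826_at of *Dll4* and 1456263_at of *Notch4* lacked a present call on the PP2 array. They entered through the abdominal array and could count only as higher, and the first 2 are among the 5. Against dorsal skin 1 of 17 was higher and 0 were lower, against 5.51% and 5.76% of 23398. The median log2 ratio of the 17 was 0.12 against virgin, 0.67 against PP2 and 0.25 against dorsal skin, and that of all probe sets compared was 0.03, 0.05 and 0.03. The probe sets of a gene share its transcripts, so these 17 are not 17 separate observations.

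With 1 probe set per gene, the one of highest mean log2 signal, the counts were smaller. Against PP2, 1 of the 10 genes (*Jag2*) was higher and 0 were lower, beside 4.89% and 3.74% of 12955 genes. *Jag2* counted by a narrow rank, since its other probe set was nearly as bright and gave 1.76-fold. Against virgin skin 0 were higher and 0 lower, beside 3.41% and 3.55% of 12744, and against dorsal skin 0 and 0, beside 5.25% and 4.96% of 12808. The median log2 ratio of the 10 was 0.02, 0.12 and 0.25 against virgin, PP2 and dorsal skin, where all genes had 0.02, 0.00 and 0.04. The count against PP2 thus went from 5 probe sets of 4 genes to 1 gene when only the brightest probe set was read.

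Dim probe sets of all genes leaned the same way in the comparison with PP2. When the probe sets compared were divided into 3 equal parts by mean signal, 15.0% of the dimmest, 6.21% of the middle and 2.48% of the brightest were higher on the abdominal array, with median log2 ratios of 0.22, 0.07 and -0.05. The Notch probe sets that passed were 2 of 3 in the dimmest part (*Jag1* and *Dll4*), 3 of 6 in the middle (*Notch3*, *Jag1* and *Jag2*) and 0 of 8 in the brightest. Against virgin skin the 3 parts of all probe sets had 6.46%, 2.73% and 1.25% higher, and against dorsal skin 9.40%, 4.12% and 3.01%. Within a gene, a probe set dimmer than the brightest one had a log2 ratio to PP2 larger by more than 1 in 8.59% of 8924 probe sets present on both arrays, compared with 1.96% against virgin and 3.23% against dorsal skin. For the Notch genes this held for 2 of 4, in *Notch3* and *Jag1*. Control transcripts are read near both ends, and for *Gapdh* the 3′ signal exceeded the 5′ signal 5.84-fold on the PP2 array, 1.41-fold on the abdominal array, and 2.51-fold and 2.97-fold on the virgin and dorsal arrays. For β-actin this ratio was 2.70 with PP2, inside the range of 2.03 to 4.14 of the others. Median signals were 103 on the PP2 array and 125 to 136 on the others. Their part in the *Notch3*, *Jag1*, *Jag2* and *Dll4* folds was not tested.

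**Figure D3:**
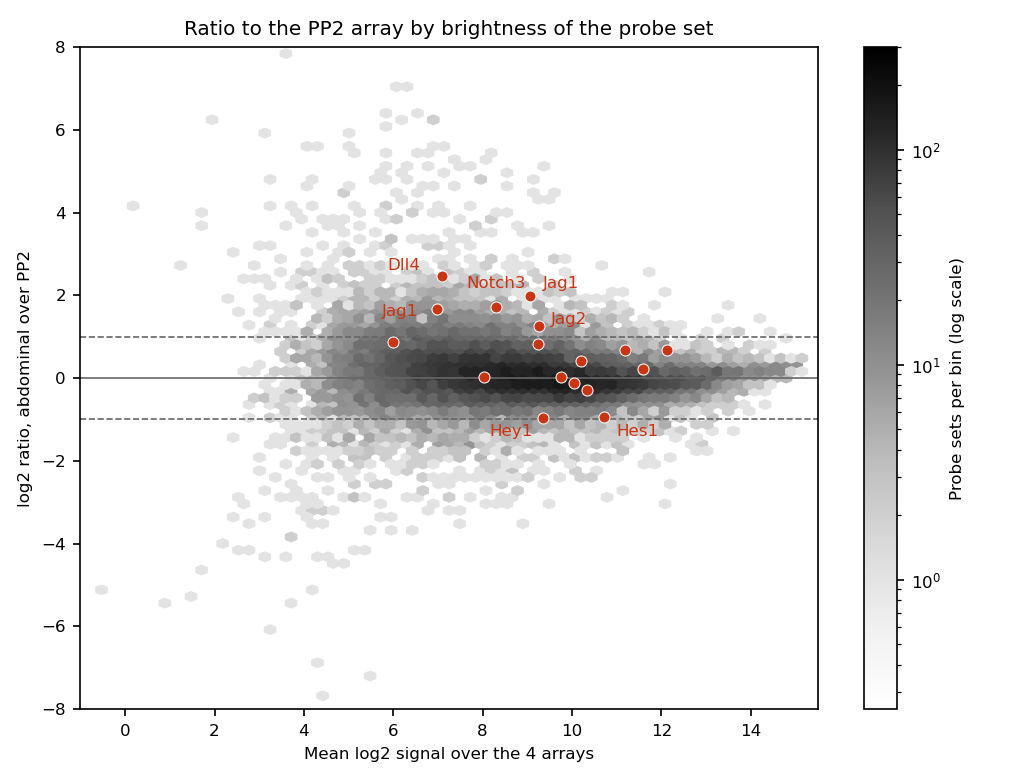
Log2 ratio of the abdominal to the PP2 array against mean log2 signal over the 4 arrays, for the 23627 probe sets compared (grey, number per bin on a log scale) and the 17 of the Notch genes (red). Named points passed or came near 2-fold (dashed lines), and the 8 Notch probe sets in the brightest of the 3 parts lie between the dashed lines.

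The rest of the pathway was read from lists of genes, of which 53 were analysed here and 49 were detected by their brightest probe set. By that probe set, 0 of 49 were higher and 2 lower in abdominal than in virgin skin, 2 of 49 were higher and 0 lower against PP2, and 1 of 48 was higher and 2 lower against dorsal skin. Their median log2 ratios were -0.06, -0.02 and -0.13. These shares, of 0 to 4.17%, were near or below those of all genes given above. Among the other, dimmer probe sets of these genes, 2 of 40 were higher and 4 lower against virgin skin, 7 of 38 higher and 0 lower against PP2, and 3 of 38 higher and 3 lower against dorsal skin. Among all probe sets compared, 3.48% were higher and 4.09% lower against virgin skin, 7.89% and 3.39% against PP2, and 5.51% and 5.76% against dorsal skin. In the dimmest of the 3 parts of all probe sets, 15.0% were higher against PP2. One of the dimmer pathway probe sets, 1430692_a_at of *Sel1l*, a gene of the degradation of membrane proteins that was chosen after its values were seen, was 3.47-fold above PP2 and 2.04-fold above dorsal skin.

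*Nrarp*, a target gene whose product limits Notch signalling by binding the nuclear complex, was the only gene of these lists whose brightest probe set was above 2-fold, and higher in abdominal skin, against more than 1 array. Probe set 1417985_at read 2561 on the virgin, 1647 on the dorsal, 3464 on the abdominal and 1239 on the PP2 array, and 1417986_at read 259, 228, 506 and 227, all present. Abdominal skin was 2.80-fold and 2.23-fold above PP2, 2.10-fold and 2.22-fold above dorsal skin, and 1.35-fold and 1.95-fold above virgin skin. In *Nrarp* the bright and the dim probe set gave the same order of arrays. Abdominal skin came first and virgin skin next, as for both *Notch3* probe sets and the brightest of *Notch1*, *Notch2* and *Jag1*. *Hes1* and *Hey1* had abdominal skin last.

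The other targets were flat or undetected. *Hey2* read 329, 247, 304 and 270 on the virgin, dorsal, abdominal and PP2 arrays. *Heyl*, a repressor of the Hey family, read 165, 178, 153 and 146 by 1419302_at. *Hes5* and *Hes7* had no present call on any array. Against PP2, the 10 genes and these targets thus held 1 target higher in abdominal skin (*Nrarp*), 2 at just under 2-fold lower (*Hes1*, *Hey1*) and 2 (*Hey2*, *Heyl*) that were 1.12-fold and 1.04-fold higher.

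*Rbpj*, which carries the signal onto DNA, read 1165, 1437, 1222 and 1244 by 1454896_at, within 1.23-fold. By the brightest probe set, 0 of the 5 detected genes of its complex, 0 of the 10 corepressors, 0 of the 5 detected subunits of γ-secretase and 0 of the 3 surface and Golgi proteases passed in any comparison. Dimmer probe sets of all of these groups except γ-secretase did, among them 2 of the protease gene *Adam17* against PP2, also chosen after its values were seen. *Maml2*, a coactivator of the complex, was undetected.

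Fringe enzymes add a sugar that tunes which ligand a receptor answers. *Mfng* read 496 on the virgin, 508 on the dorsal, 706 on the abdominal and 437 on the PP2 array, with abdominal skin 1.42-fold, 1.39-fold and 1.61-fold above. *Rfng* read 910, 838, 759 and 867. *Lfng* read 270, 150, 185 and 115, with present calls only on the virgin and PP2 arrays. *Neurl3*, a ubiquitin ligase of the Neuralized family, read 237, 130, 229 and 108, was present on all but the dorsal array, and was 2.13-fold above PP2.

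Among regulators of receptor turnover, *Numbl*, a relative of the Notch inhibitor Numb, read 422 on the virgin, 395 on the dorsal, 193 on the abdominal and 323 on the PP2 array. *Dtx3*, of the Deltex family of ubiquitin ligases, read 960, 1246, 430 and 683. Both were lowest in abdominal skin at 15 dpc. *Numbl* was 2.19-fold and 2.05-fold higher in virgin and dorsal skin, *Dtx3* was 2.23-fold and 2.90-fold higher, and neither passed 2-fold against PP2, where the folds were 1.68 and 1.59.

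**Figure D4:**
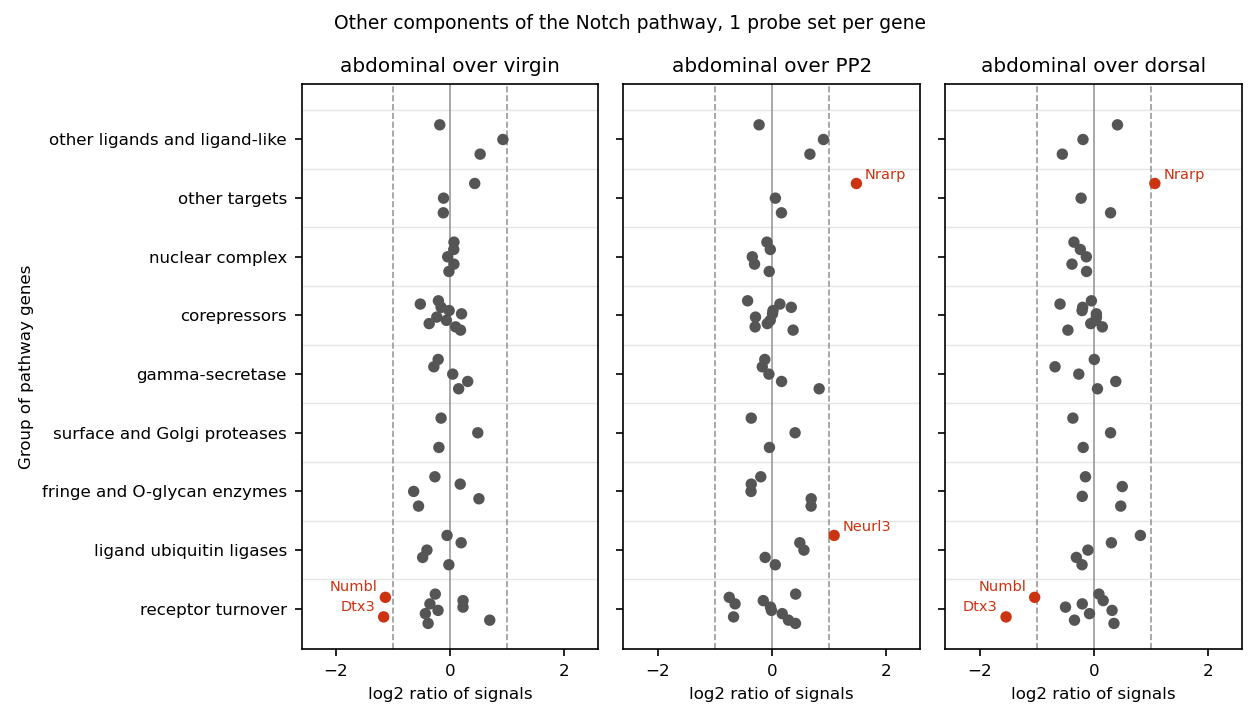
Log2 ratio of the abdominal array to each other array for the detected pathway genes outside the 10, 1 probe set per gene, by group. Red points with names passed 2-fold (dashed lines): *Numbl* and *Dtx3* on the low side against virgin and dorsal skin, *Nrarp* and *Neurl3* on the high side against PP2, and *Nrarp* against dorsal skin.

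Markers of the cells in which these genes act were read beside them, as the summed signal of the detected genes of each list. All 10 fibroblast markers, which the label of dermis calls for, were detected, and so were 12 of 12 keratinocyte, 12 of 12 endothelial, 11 of 12 mural, 10 of 12 hair, 9 of 10 dermal papilla and 8 of 10 leukocyte markers, so RNA of other cell types was present too. Beside *Notch3*, the mural list, of smooth muscle and pericyte genes, summed to 50149 on the virgin, 39343 on the dorsal, 52450 on the abdominal and 39090 on the PP2 array. Abdominal skin was 1.34-fold above PP2, 1.33-fold above dorsal and 1.05-fold above virgin skin by this sum. The median log2 ratio over the 11 genes was 0.02, -0.10 and -0.20 for the same pairs, flat or on the other side, and 4 of the 11 were highest and 5 lowest on the abdominal array. *Myh11*, the smooth muscle myosin, passed 2-fold against PP2 and dorsal skin, and it read 1923, 1117, 3706 and 1207. In the dorsal comparison 3 mural genes were higher (*Acta2*, *Myh11*, *Tagln*) and 3 lower (*Cspg4*, *Abcc9*, *Kcnj8*). These 3 higher genes belong to the contractile apparatus and the 3 lower ones to pericytes, but the rest of the list followed this division only in part. *Rgs5*, another pericyte gene, was 1.13-fold higher than in dorsal skin by its brightest probe set and 2.59-fold higher by 1420940_x_at. *Pdgfrb* and *Mcam* were 1.14-fold and 1.09-fold lower, *Des*, of muscle, was 1.07-fold lower, and *Kcnmb1* was 1.39-fold higher. Against virgin skin 1 mural gene was higher, *Kcnmb1*, which had no present call on the virgin array.

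Beside *Dll4*, *Notch4* and *Jag1*, the endothelial list summed to 41920, 36017, 41779 and 33179, with abdominal skin 1.26-fold above PP2, and 2 of 12 genes passed there, *Pecam1* and *Tie1*. It had 0 genes past 2-fold against virgin and dorsal skin. Beside *Jag1* and *Jag2*, the keratinocyte list summed to 99195, 168030, 124912 and 75836, in the order dorsal, abdominal, virgin, PP2 that *Jag2* had. By their brightest probe sets, *Krt5*, *Krt15*, *Krt1*, *Krt10* and *Dsp* had this order and the other genes of the list did not. On the abdominal array 3 of the 12 were highest and 1 lowest. Abdominal skin was 1.65-fold above PP2, with *Krt5*, *Krt1* and *Sfn* past 2-fold, and dorsal skin was 1.35-fold above abdominal skin.

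The hair list, of matrix and shaft genes, summed to 3248 on the virgin, 4215 on the dorsal, 14156 on the abdominal and 5266 on the PP2 array, 2.69-fold to 4.36-fold higher in abdominal skin. Of its 10 detected genes, 8 were higher and 0 lower against virgin skin, and 6 were higher and 1 lower against each of PP2 and dorsal skin. The lower one was *Lef1*, a transcription factor of Wnt signalling. *Krt31*, *Krt35*, *Krt71* and *Msx2* were called present on the abdominal array only. They entered the list through that array and could pass only as higher, so the counts and the sum rest in part on that entry. The dermal papilla list summed to 35911, 27840, 17481 and 31775. This sum was lowest on the abdominal array, as *Hes1* and *Hey1* were, and 1.82-fold above it on the PP2 array. Its genes were divided, with 4 of 9 lowest and 2 highest on the abdominal array. Against PP2, 4 (*Sox2*, *Hhip*, *Lepr*, *Crabp1*) were past 2-fold lower and 0 higher, against virgin skin 3 were lower and 1 higher (*Corin*), and against dorsal skin 3 were lower and 0 higher. The median log2 ratio was -0.86 against PP2 and -0.55 against virgin skin, but 0.17 against dorsal skin, where the sum was on the other side. The fibroblast list summed to 122257, 83792, 112994 and 106144, and the leukocyte list to 6937, 4013, 4525 and 4732. The parts that these cell types had in the signals of the Notch genes were not tested.

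**Figure D5:**
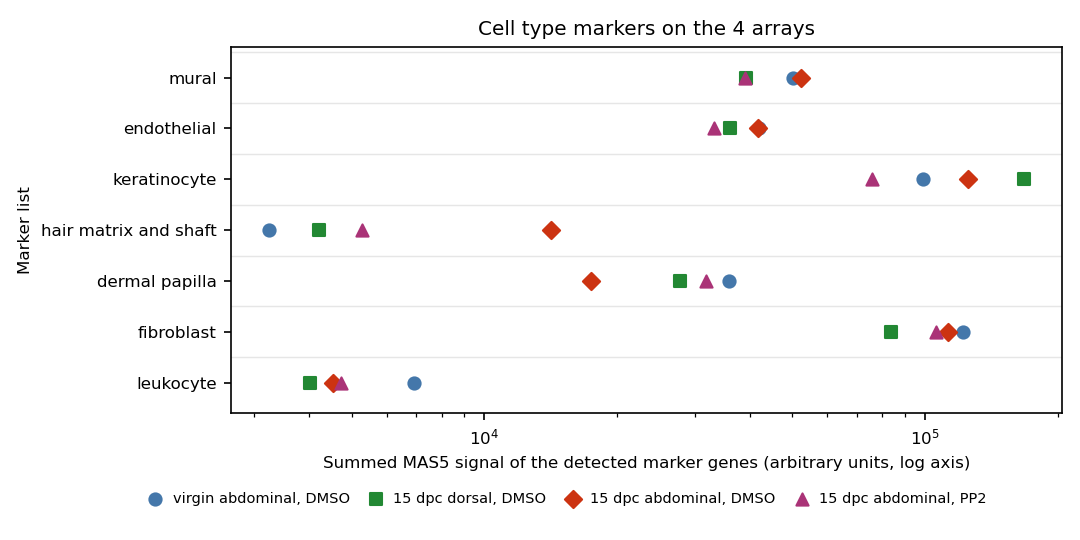
Summed MAS5 signal (arbitrary units, log axis) of the detected genes of 7 marker lists on the 4 arrays, 1 probe set per gene. By these sums the abdominal array is highest for the hair list and lowest for the dermal papilla list, and the PP2 array is lowest for the keratinocyte, endothelial and mural lists.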

How the data were processed

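Total RNA of 4 samples of dermal cells was labelled with a 3′ in vitro transcription kit and hybridised to Affymetrix mouse arrays, 1 per condition. The authors deposited, for each of 45101 probe sets, a MAS5 signal (a linear intensity, with each array scaled to a common trimmed mean) and a detection call, which can be present, marginal or absent. Affymetrix Expression Console, version 1, is named in the submitters' processing notes. The combined table held the same signals as the 4 separate ones, with 0 differences. Intensities were used as deposited, and only a present call counted as detection. The platform's annotation gave the gene symbols, and probe sets with several symbols were left out. All 10 Entrez identifiers matched the GRCm38.p6 gene table, with 0 symbols changed.

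Ratios, counts past 2-fold and medians were computed with Python 3.11.15, pandas 2.3.3 and numpy 2.4.6, and the counting was tested on simulated data. Groups came from the sample titles. Every probe set of the 10 genes is named. Other pathway genes are named where their brightest probe set passed 2-fold in a comparison, together with *Rbpj*, *Heyl*, *Hey2*, *Hes5*, *Nrarp* and the 3 fringes; *Hes7* and *Maml2* are named as undetected, and some listed genes are not reported here. The members and lists were chosen with earlier results of these data known. The alternatives tried were scaling to one median of present signals, quantile normalization, an offset of 50, no detection filter, limits of 1.5-fold and 3-fold, and the median over a gene's probe sets; counting representative probe sets only was added after seeing the data. MAS5 subtracts mismatch probes, which makes dim signals variable. The number of arrays limits the precision. Positions of probe sets along transcripts were not used here.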

Additional observations from a re-analysis of the deposited data

How the results depend on the processing

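The count of 5 Notch probe sets higher than with PP2 stayed 5 with either scaling, the offset and no detection filter. It was 9 at a limit of 1.5-fold, 4 at 3-fold and 1 with representative probe sets only. The count of 1 against virgin skin became 3 without the detection filter, 2 at 1.5-fold, and 0 with the offset of 50, at 3-fold and with representative probe sets. The count of 1 against dorsal skin became 5 at 1.5-fold, and 0 at 3-fold and with representative probe sets. Of lower probe sets, 0 against PP2 became 2 (*Hes1*, *Hey1*) at 1.5-fold and 2 with scaling to one median, and 0 against virgin and against dorsal skin became 1 each at 1.5-fold (*Hes1* and *Notch4*). With that scaling, the median log2 ratio to PP2 of probe sets present on both arrays went from 0.05 to -0.06.

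Of the 30 log2 ratios of the 10 genes, 9 alternatives turned the sign. The median over probe sets gave 5 of them (*Notch4* in all 3 comparisons, *Dll4* against virgin and dorsal skin). A scaling gave 4 (*Notch1* and *Hey1* against virgin skin, *Dll4* against PP2 with both scalings). All 9 had ratios of at most 0.28 in size as deposited. These ratios use the brightest probe set, by which only *Jag2* against PP2 passed 2-fold, and its sign did not turn. The dimmer passing probe sets of *Notch3*, *Jag1* and *Dll4* were not under this check. The median over probe sets also moved 2 ratios by over 1.5-fold, both to above 2-fold: *Jag1* against PP2 from 0.68 to 1.66 and *Dll4* against PP2 from 0.03 to 1.24. Both medians rest on a probe set without a present call on the PP2 array, 1421105_at for *Jag1* and 1421826_at for *Dll4*. No paired analysis was possible because each condition had 1 array. The causes were not tested.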

Other observations

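*Adam17*, a surface protease that can cleave Notch and many other membrane proteins, was chosen after its values were seen, since its probe sets differed in the comparison with PP2. By 1421857_at it read 199 on the virgin, 185 on the dorsal, 269 on the abdominal and 59.5 on the PP2 array, 4.52-fold higher in abdominal skin than with PP2. By 1421859_at it read 1152, 678, 1205 and 433, which is 2.78-fold. By 1421858_at, the brightest on average, it read 986, 1128, 1384 and 1043, which is 1.33-fold. All were present on the 4 arrays, and PP2 was the lowest array by the first 2 and the second lowest by the brightest.

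Over the 17 Notch probe sets present on at least 1 array, the abdominal array gave the highest signal in 9 and the PP2 array the lowest in 10. Among all 24581 such probe sets, the abdominal array was highest in 24.0% and PP2 lowest in 33.3%. Some of the 10 had no present call on the PP2 array. Of the 14 Notch probe sets present on all arrays, the abdominal array was highest in 7 and PP2 lowest in 7, beside 22.9% and 31.4% of all 19471. Probe sets of a gene share its transcripts, so these counts are not of separate observations.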
